A study of Homo sapiens with 12 samples.

Results

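Ubiquitin-specific proteases (USPs) were examined in poly(A) RNA-seq of SHEP cells, an established human neuroblastoma line, with USP7 and USP11 first because the series is named after these enzymes and TCEAL1. The genes were chosen by name: a symbol of USP followed by a number, no mention of a pseudogene in the description, and at least 0.5 CPM (counts per 1000000 reads) in at least 3 libraries. This gave 46 genes of the 28576 in the deposited table. USP26 and USP44 have matching symbols but did not reach 0.5 CPM in 3 libraries, so 46 of 48 USP symbols were kept. USP36 is listed without a symbol and therefore falls outside the 46. It was identified by its identifier and description and is reported separately.

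All 12 libraries come from SHEP cells with a MYCN-ER fusion and a doxycycline-inducible hairpin against TCEAL1, so the controls carry both constructs too. MYCN-ER is the oncogenic transcription factor MYCN joined to an estrogen receptor domain, and 4-hydroxytamoxifen (OHT, 200 nM) was used to activate it. Doxycycline (Dox, 1 µg/ml) was used to induce the hairpin. Each of 4 groups has 3 libraries: Ctrl received neither agent, OHT and Dox received 1 agent each, and OHT_Dox received both. The labels give no treatment times, 1 hairpin only, and no cells treated with Dox or OHT but lacking the construct, so an effect of a compound itself and that of its construct cannot be told apart. The labels also do not say whether the replicates were separate cultures, so the p-values speak only of the spread among these libraries, which may be technical.

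Ubiquitin is a small protein that is attached to other proteins by E3 ligases, and chains of it often mark a protein for the proteasome. USPs are cysteine proteases that remove ubiquitin again, and they form the largest family of deubiquitinases in human cells. USP7 stabilises the p53 ligase MDM2, p53 itself and many chromatin proteins, and USP11 has been described in DNA repair and in the stabilisation of MYCN. Since these enzymes act on proteins, the RNA levels described here do not measure their activity or the stability of any substrate. In bulk RNA, fewer cells that express a gene and less RNA per cell cannot be told apart.

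Library depth ranged from 44466458 to 57694970 reads, recovered as whole numbers from the CPM. TCEAL1, the target of the hairpin, lay between 8.23 and 10.7 CPM in the 6 libraries without Dox and between 1.73 and 2.74 CPM in the 6 with it (log2 change with Dox -1.72 ± 0.13 in the absence of OHT and -1.79 ± 0.13 in its presence). All 6 mesenchymal markers were detected, with VIM between 2223 and 3083 CPM, whereas among adrenergic neuroblastoma markers DBH did not exceed 0.581 CPM in any library and GATA3 lay between 7.30 and 10.1 CPM. The epithelial marker CDH1 and the haematopoietic marker PTPRC reached at most 0.922 and 0.413 CPM. Changes below are differences in log2(CPM + 0.5) with their standard error (SE) from limma, fitted over 18674 genes. A gene is said to have risen or fallen where the Benjamini-Hochberg adjusted p over all genes was below 0.05, and group values are mean CPM ± SD with n = 3.

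USP RNA was abundant, and for most members it varied little between libraries. Of the 46 members, 37 were above 10 CPM in every library, 7 were above 100 CPM in every library and 6 stayed below 3 CPM throughout. The ratio of the highest to the lowest of the 12 libraries was 1.12 for USP5, 1.38 at the median and 2.998 for the weakly expressed USP51, and 30 members stayed under a ratio of 1.5. Summed over the 46 genes, USP RNA made up 3079 ± 160 CPM in Ctrl, 3211 ± 101 in OHT, 3285.5 ± 28.1 in Dox and 3099 ± 92.8 in OHT_Dox. The sums of Ctrl and Dox overlapped: Ctrl replicate 1 was at 3264 CPM, within the range of the Dox libraries. Ctrl replicates 2 and 3 were at 2986 and 2988 CPM. Every OHT_Dox library (3003 to 3188 CPM) was below every Dox library (3257 to 3314 CPM).

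Compared per kilobase of the longest annotated transcript, USP22, the deubiquitinase of the SAGA coactivator complex, had the highest level with 115 CPM per kb as the mean of the 4 groups. It provided 18.9% of the summed USP CPM. USP39, a catalytically inactive member that belongs to the spliceosome, followed at 54.6 CPM per kb. USP10 stood at 44.1 and USP5, which takes apart free ubiquitin chains, at 43.4 CPM per kb. USP14, which works on the proteasome, came next at 37.2 CPM per kb. USP11 and USP7 were sixth and seventh, with 31.9 and 30.6 CPM per kb. The order of this pair depended on the group: in Ctrl USP11 was at 35.4 ± 0.584 and USP7 at 29.01 ± 2.22 CPM per kb, and in OHT USP11 was at 28.7 ± 1.90 and USP7 at 31.0 ± 1.84 CPM per kb, which is within their spread. The lowest levels were those of USP51 (0.180 CPM per kb) and USP6 (0.166 CPM per kb). Using the longest protein-coding transcript instead moved no member by more than 5 ranks.

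**Figure D1:**
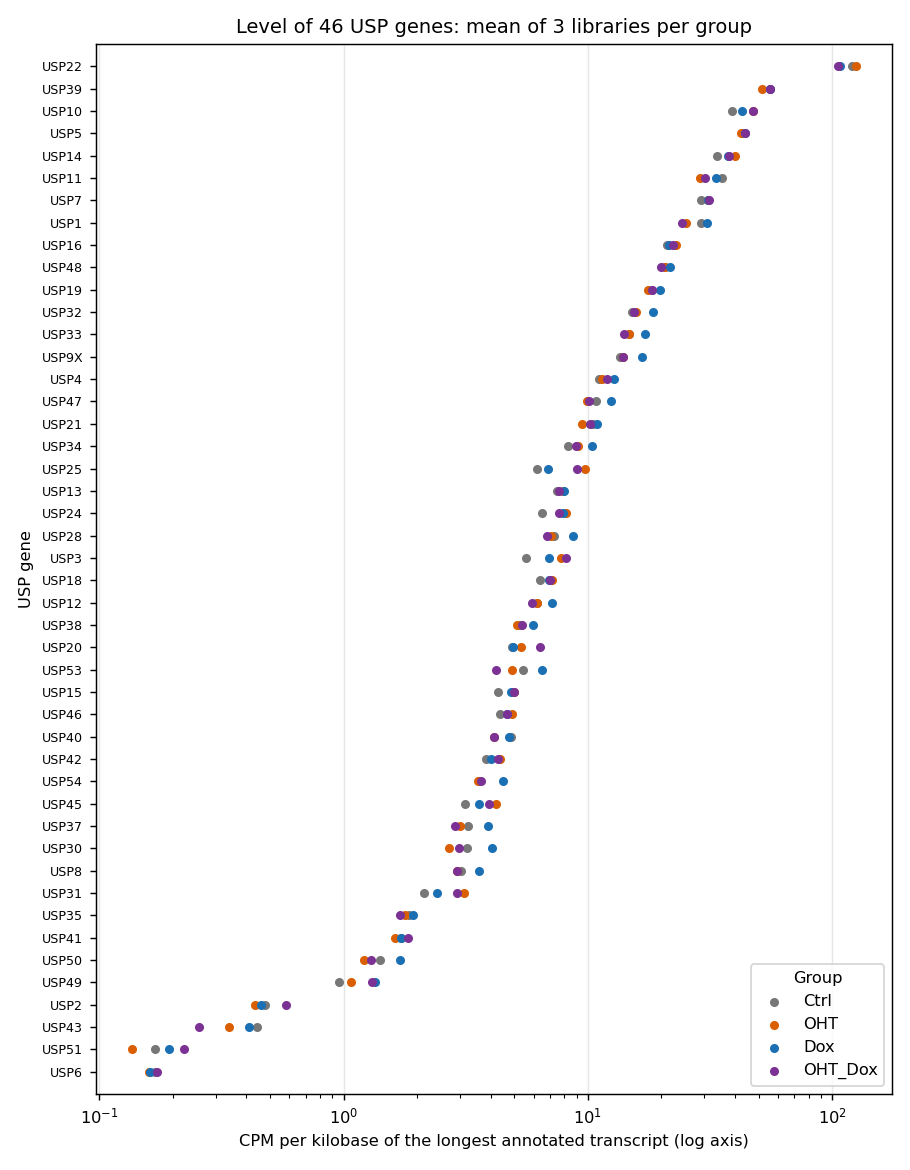
Level of each of the 46 USP genes in CPM per kilobase of the longest transcript (log axis), with 1 point for the mean of each of the 4 groups. USP22 stands at the top with 115 CPM per kb over the groups, USP11 (31.9) and USP7 (30.6) are sixth and seventh, and the 4 group means of most genes lie close together.

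USP7 (ENSG00000187555) did not change detectably in any comparison. It was at 163, 165 and 143 CPM in Ctrl, 176, 157 and 170.3 in OHT, 162, 174 and 168 in Dox, and 174, 172 and 162 in OHT_Dox. All groups overlap. The change with OHT was 0.10 ± 0.06 without Dox (95% interval -0.03 to 0.23, adjusted p = 0.288) and 0.01 with Dox (-0.12 to 0.14, adjusted p = 0.943). With Dox it was 0.10 without OHT (-0.03 to 0.23, adjusted p = 0.307) and 0.01 with OHT (-0.12 to 0.14, adjusted p = 0.958). The widest of these intervals reach 0.23 in log2 units.

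USP11 (ENSG00000102226) fell with OHT in the absence of Dox. Its level was 122, 125 and 126 CPM in Ctrl, 99.9, 94.6 and 108 in OHT, 115, 113 and 124 in Dox, and 106, 101 and 110.4 in OHT_Dox. Every OHT library was below every Ctrl library, and every OHT_Dox library was below every Dox library. The decrease without Dox was -0.30 ± 0.06 (95% interval -0.43 to -0.18, adjusted p = 8.39e-04). With Dox the change was -0.16 ± 0.06 (-0.28 to -0.03) and did not pass the test (adjusted p = 0.0580). It passed once trends with transcript length and GC content were removed (-0.20, adjusted p = 0.00433) and without OHT_Dox replicate 3 (-0.19, adjusted p = 0.0428). In most of the 21 alternatives it did not pass. The difference between these changes was 0.15 ± 0.08 (-0.02 to 0.32, adjusted p = 0.401). Dox alone changed USP11 by -0.08 (-0.21 to 0.04, adjusted p = 0.392), and Dox in the presence of OHT by 0.07 (-0.06 to 0.19, adjusted p = 0.682), so knockdown of TCEAL1 RNA was not accompanied by a detectable change of USP11 RNA.

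The closest relatives of USP11 did not follow it. USP15 (ENSG00000135655), which acts on TGF-beta receptors among other substrates, was at 68.1, 63.9 and 60.5 CPM in Ctrl, 75.0, 74.3 and 75.0 in OHT, 75.2, 72.2 and 70.1 in Dox, and 73.4, 83.0 and 67.9 in OHT_Dox. It rose with OHT in the absence of Dox by 0.22 ± 0.07 (adjusted p = 0.0257), a call that was lost without Ctrl replicate 2, without Ctrl replicate 3, without OHT replicate 1, without OHT replicate 3 and with the length and GC trend removed. In the Dox background OHT changed it by 0.04 (adjusted p = 0.726), or by 0.22 (adjusted p = 0.00554) with that trend removed. USP4 (ENSG00000114316) was at 42.9, 39.4 and 35.3 CPM in Ctrl, 43.4, 38.0 and 39.5 in OHT, 46.3, 45.5 and 44.5 in Dox, and 42.4, 44.5 and 40.1 in OHT_Dox. Its 3 Dox libraries lay above all Ctrl libraries, but the change of 0.22 ± 0.07 did not pass the test (adjusted p = 0.0717), and no comparison called it. Thus of the 3 paralogues 1 fell, 1 rose and 1 did not pass when OHT was added to cells without Dox.

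**Figure D2:**
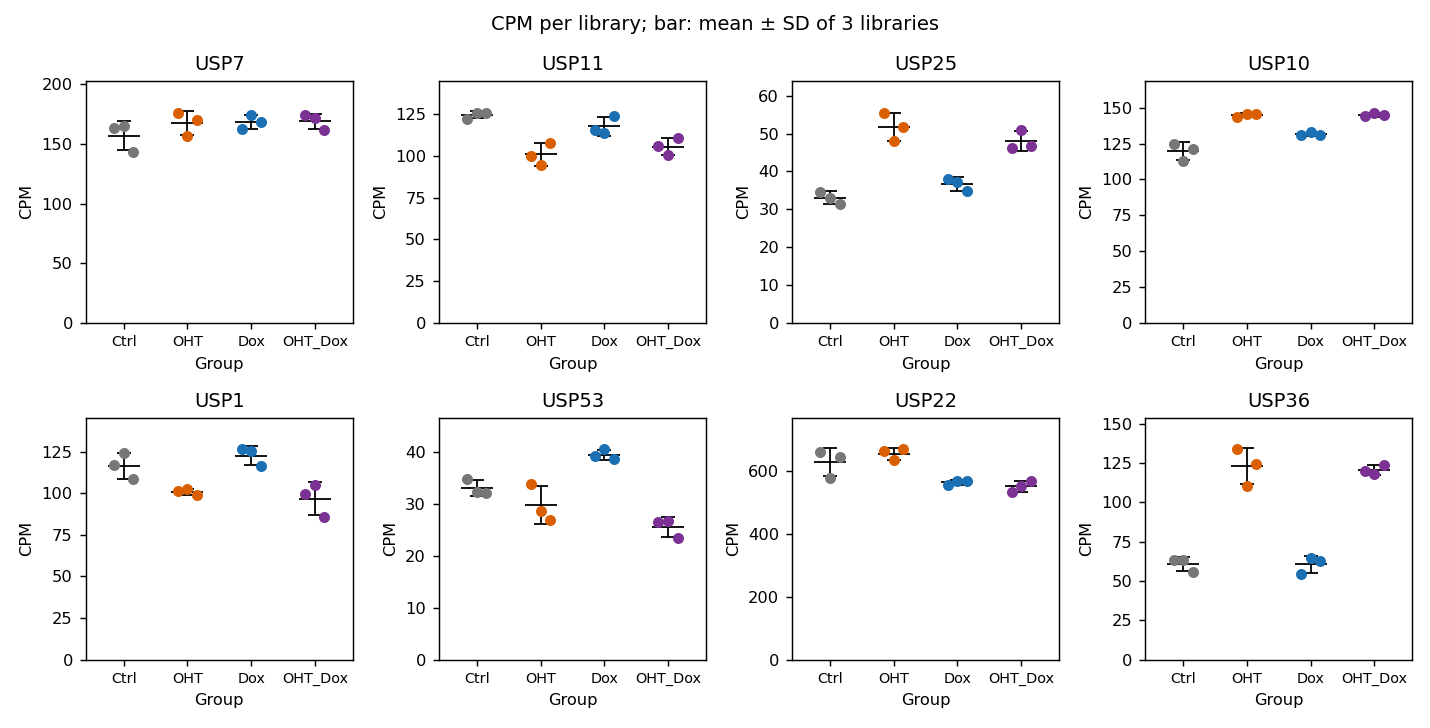
CPM in each library for USP7, USP11, USP25, USP10, USP1, USP53, USP22 and USP36 (points are libraries, bars show the mean ± SD of the 3 libraries of a group). USP7 overlaps in all groups, USP11 is lower in both groups with OHT, USP53 is lowest in OHT_Dox (23.4 to 26.6 CPM), and USP36 is above 110 CPM in all 6 libraries with OHT and below 65 CPM in the other 6.

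Adding OHT to cells without Dox raised 8 members, or 17.4% of the 46, where 12.6% of all genes tested rose. It lowered 3 members, where 8.79% of all genes fell. The members that rose were USP25, USP3, USP10, USP31, USP14, USP45, USP15 and USP24, and those that fell were USP11, USP40 and USP1. Over all 46 members the median change was -0.00, beside -0.01 over all genes, with a range from -0.30 to 0.64. In 10 members all OHT libraries were above all Ctrl libraries (21.7%, beside 17.5% of all genes), and in 6 all were below (13.04%, beside 16.7%). As a family the USP genes were thus called about as often as genes in general (23.9% against 21.4%). The number that fell was 1 without Ctrl replicate 1 (9.09% of all genes then fell), without Ctrl replicate 2 (6.09%) or without OHT replicate 3 (6.05%). It was 7 with the length and GC trend removed (13.5%).

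USP25 (ENSG00000155313), which acts in innate immune signalling and in the degradation of proteins from the endoplasmic reticulum, had the largest rise. Its level was 34.7, 33.1 and 31.3 CPM in Ctrl, 55.6, 48.1 and 51.8 in OHT, 38.1, 37.3 and 34.7 in Dox, and 46.2, 51.1 and 46.8 in OHT_Dox. The groups with OHT did not overlap those without it. It rose by 0.64 ± 0.07 without Dox (adjusted p = 1.60e-06) and by 0.38 ± 0.07 with Dox (adjusted p = 4.36e-04), with an interaction (the difference of both changes) of -0.26 ± 0.10 (adjusted p = 0.246). The paralogue USP28 behaved otherwise: OHT changed it by -0.03 without Dox, and it fell by 0.35 ± 0.08 with Dox (adjusted p = 0.00307).

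USP10 (ENSG00000103194), a partner of the stress granule protein G3BP1 and a deubiquitinase of p53, also rose in both backgrounds. It was at 125, 113 and 121 CPM in Ctrl, 144, 146 and 146 in OHT, 131, 133 and 131 in Dox, and 144, 147 and 145 in OHT_Dox. The rise was 0.28 ± 0.05 without Dox (adjusted p = 4.67e-04) and 0.14 ± 0.05 with Dox (adjusted p = 0.0400). The second call was lost in 9 of 21 alternative settings. Both groups with OHT reached nearly the same level, 144.9 ± 1.23 and 145 ± 1.33 CPM.

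USP3 (ENSG00000140455), which removes ubiquitin from histones H2A and H2B, was at 32.8, 29.2 and 29.9 CPM in Ctrl, 44.6, 41.3 and 41.9 in OHT, 39.3, 37.9 and 37.2 in Dox, and 43.4, 47.8 and 43.0 in OHT_Dox. It rose with OHT by 0.47 ± 0.07 without Dox (adjusted p = 4.05e-05) and by 0.23 ± 0.07 with Dox (adjusted p = 0.0172), and it rose by 0.31 ± 0.07 with Dox alone (adjusted p = 0.0122). Ctrl was below all other groups. USP3 shares 1760 exon bases with the antisense gene USP3-AS1, whose CPM was between 0.869 and 0.909 of that of USP3 in all 12 libraries. The strand setting of the counting is not stated, so reads of these 2 genes cannot be told apart.

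USP31 (ENSG00000103404), which has been linked to NF-kB signalling, was at 26.9, 21.03 and 20.8 CPM in Ctrl, 38.8, 30.6 and 30.2 in OHT, 26.4, 26.3 and 24.9 in Dox, and 32.1, 32.0 and 29.8 in OHT_Dox. Replicate 1 was the highest of Ctrl and of OHT. It rose without Dox by 0.53 ± 0.10 (adjusted p = 6.93e-04). With Dox the change was 0.27 ± 0.10 and just missed the threshold (adjusted p = 0.0507), although the libraries did not overlap. It passed with TMM rescaling (adjusted p = 0.0221), edgeR (0.0230), DESeq2 (0.0122), the length and GC trend removed (0.36, adjusted p = 4.90e-04), and without any 1 of the 3 Ctrl libraries, OHT replicate 1 or OHT replicate 2 (adjusted p from 0.01999 to 0.0497). Part of its exon sequence, 2768 bases, is also annotated to a noncoding gene on the same strand that was counted at 5.51 CPM.

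USP14, which trims ubiquitin chains on the proteasome, was at 172, 165 and 159.9 CPM in Ctrl, 196, 196 and 195 in OHT, 188, 181 and 183 in Dox, and 189, 193 and 177 in OHT_Dox. It rose with OHT by 0.24 ± 0.05 without Dox (adjusted p = 0.00160), and the change with Dox was 0.02 (adjusted p = 0.840). USP45, described as an enzyme of the DNA repair protein ERCC1, rose by 0.42 ± 0.09 without Dox (adjusted p = 0.00208), from 19.6 ± 2.50 to 26.4 ± 1.98 CPM, and changed by 0.13 with Dox (adjusted p = 0.334). USP24, a large enzyme with p53 among its reported substrates, rose by 0.33 ± 0.11 (adjusted p = 0.0406), but its Ctrl and OHT libraries overlap and the call was lost in 7 of 21 alternatives.

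USP1 (ENSG00000162607) fell with OHT in both backgrounds. With its cofactor WDR48 it removes ubiquitin from FANCD2 and PCNA during DNA repair. It was at 117, 124 and 108 CPM in Ctrl, 101, 103 and 98.9 in OHT, 126, 125 and 116 in Dox, and 99.7, 105 and 85.7 in OHT_Dox. The decrease was -0.21 ± 0.07 without Dox (adjusted p = 0.0406) and -0.34 ± 0.07 with Dox (adjusted p = 0.00102). The first call was lost in 8 of 21 alternatives, the second in none. USP40 also fell in both, by -0.23 ± 0.07 (adjusted p = 0.0301) and -0.20 ± 0.07 (adjusted p = 0.0458), and the second call was lost in 13 of 21 alternatives.

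Adding OHT to cells with Dox gave a different balance: 4 members rose (8.70% of 46), beside 11.5% of all genes, and 14 fell (30.4%), beside 14.5% of all genes. The members that rose were USP25, USP20, USP3 and USP10. USP53, USP37, USP1, USP8, USP30, USP47, USP28, USP33, USP54, USP43, USP12, USP9X, USP32 and USP40 fell. The median over all members was -0.08, beside -0.03 over all genes. In this comparison 39.1% of members were called, beside 26.04% of all genes. All OHT_Dox libraries were above all Dox libraries in 6 members, beside 17.4% of all genes, and below them in 19 (41.3%), beside 23.9%. These counts of calls depended on single libraries. Only 2 members rose without Dox replicate 2 (9.22% of all genes then rose), Dox replicate 3 (10.6%) or OHT_Dox replicate 2 (11%). The number that fell was 9 without Dox replicate 2 (9.82% of all genes then fell), 10 without OHT_Dox replicate 3 (10.3%), and 7 without both Dox replicate 1 and OHT_Dox replicate 3 (8.44%). OHT_Dox replicate 3 was the library whose deviations from its group mean rose most with the GC content of genes (Spearman 0.528 across genes), and its median deviation over the members was -0.06. The part of GC content in the result was not tested beyond removal of the trend. That left 12 members that fell and gave 9 that rose, beside 13.8% and 13.3% of all genes.

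USP53 (ENSG00000145390) had the largest fall. It was first described at cell junctions. Its level was 34.9, 32.3 and 32.1 CPM in Ctrl, 33.8, 28.7 and 26.8 in OHT, 39.2, 40.5 and 38.6 in Dox, and 26.6, 26.6 and 23.4 in OHT_Dox. All Dox libraries were above, and all OHT_Dox libraries below, every library of the other groups. OHT changed it by -0.62 ± 0.08 with Dox (adjusted p = 1.46e-05) and by -0.15 ± 0.08 without Dox (adjusted p = 0.196). The difference between these changes was -0.47 ± 0.12 (95% interval -0.71 to -0.22) with adjusted p = 0.221 over all genes. USP54, its paralogue, was at 25.1, 20.5 and 21.6 CPM in Ctrl, 24.0, 20.99 and 21.3 in OHT, 28.5, 27.3 and 28.7 in Dox, and 23.9, 22.8 and 21.7 in OHT_Dox. It fell with OHT in the Dox background by 0.30 ± 0.08 (adjusted p = 0.0103), from a Dox group that stood above all others. USP54 shares 1528 exon bases with the opposite-strand gene PPP3CB-AS1. That gene also fell in this comparison (-0.25 ± 0.09, adjusted p = 0.0435). It rose with Dox in the absence of OHT (0.32 ± 0.09, adjusted p = 0.0359), so the reads of both may be mixed.

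USP37 and USP8 also fell in this comparison. USP37, which stabilises cyclin A at the start of S phase, was at 28.1, 25.3 and 24.1 CPM in Ctrl, 26.7, 23.2 and 22.5 in OHT, 30.9, 32.2 and 30.6 in Dox, and 23.8, 24.5 and 20.9 in OHT_Dox, with a change of -0.43 ± 0.08 (adjusted p = 7.08e-04). USP8, which acts on receptors sorted at endosomes, was at 60.7, 57.7 and 53.7 CPM in Ctrl, 54.4, 56.1 and 55.8 in OHT, 70.3, 66.8 and 67.2 in Dox, and 57.4, 55.7 and 53.2 in OHT_Dox, a fall of -0.29 ± 0.06 (adjusted p = 0.00109). In both genes the Dox libraries were the highest of the 12. USP37 shares 3045 exon bases with the opposite-strand gene VIL1, which was counted at 0.330 to 0.444 of the CPM of USP37. VIL1 also fell with OHT in the Dox background (-0.32 ± 0.10, adjusted p = 0.0281), so the reads of both may be mixed. With the length and GC trend removed, the change of USP8, which has a longest transcript of 19026 nucleotides, was -0.13 and not called.

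USP30 sits in the outer mitochondrial membrane and counteracts the removal of damaged mitochondria. It was at 12.9, 12.1 and 10.97 CPM in Ctrl, 10.2, 9.77 and 10.3 in OHT, 14.2, 15.2 and 15.99 in Dox, and 11.1, 11.2 and 11.2 in OHT_Dox. It fell with OHT by 0.42 ± 0.09 in the Dox background (adjusted p = 0.00137), and its change without Dox was -0.23 ± 0.09 (adjusted p = 0.0673). The other members that fell changed less or were weakly expressed. USP47 fell by 0.31 ± 0.07, USP33 by 0.28 ± 0.07, USP12 by 0.27 ± 0.09, USP9X, an enzyme of the survival protein MCL1, by 0.26 ± 0.08, and USP32 by 0.25 ± 0.09. USP43 fell by 0.50 ± 0.16 at levels between 0.945 and 1.91 CPM. Of 21 alternatives, 8 lost the call of USP32, 7 that of USP9X, 6 that of USP12, 4 that of USP43 and 1 that of USP33.

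USP20 was the only member called as risen with OHT in the Dox background alone. It was at 21.4, 22.6 and 21.2 CPM in Ctrl, 24.2, 21.3 and 25.9 in OHT, 21.9, 20.3 and 24.0 in Dox, and 30.3, 26.5 and 28.1 in OHT_Dox, the group above all others. The rise was 0.35 ± 0.09 (adjusted p = 0.00436), beside 0.12 without Dox (adjusted p = 0.333), and the difference between both was not called in any member. USP33, its paralogue, moved the other way in the same comparison.

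Across both backgrounds, 24 members were called for OHT in at least 1, of which 3 rose in both (USP25, USP3 and USP10), 2 fell in both (USP1 and USP40) and 0 were called in opposite directions. The sign was the same in 30 of 46 members. These counts were not made over all genes, so they cannot be read as particular to the USPs. These comparisons share no library, and the changes correlated across members with Pearson 0.643 and Spearman 0.583, beside Pearson 0.690 across all genes. Genes are not independent replicates, so these coefficients are a description.

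**Figure D3:**
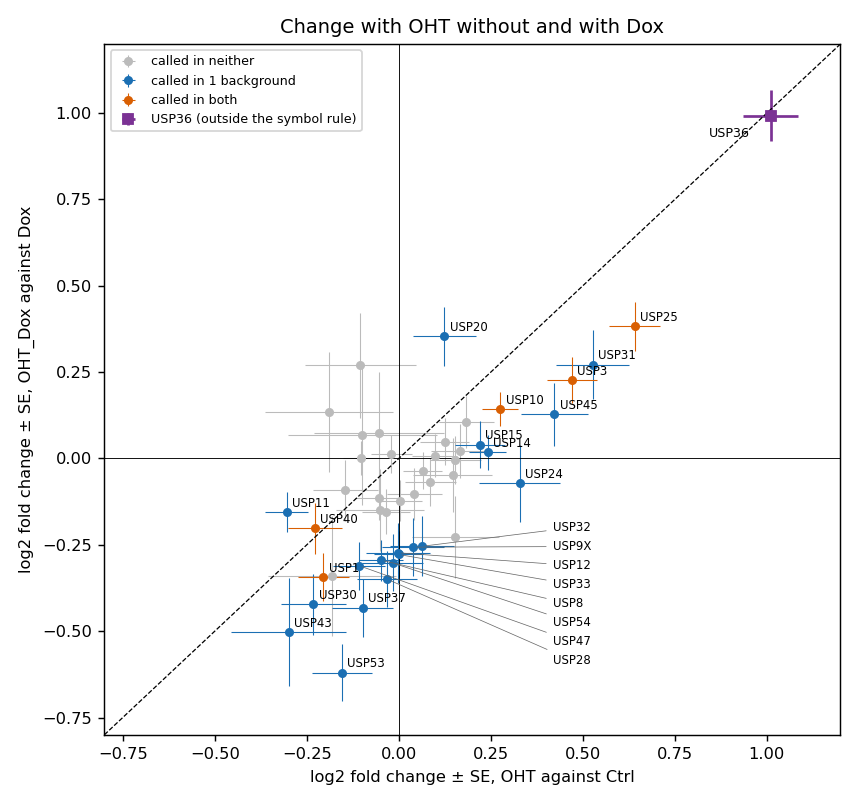
Change with OHT in cells without Dox (horizontal axis) and with Dox (vertical axis), in log2 units ± SE, for the 46 USP genes and USP36 (square); the dashed line marks equal changes. The change with Dox is less positive or more negative than that without it for 36 of 46 members, which lie below the line. USP25 (0.64 and 0.38) has the largest rise of the members, USP53 (-0.15 and -0.62) is lowest, and USP36 (1.01 and 0.99) lies on the line.

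Dox without OHT raised 9 members (19.6% of 46), beside 5.68% of all genes, and lowered 0 in the limma fit, beside 2.61% of all genes. The 9 were USP3, USP49, USP8, USP54, USP30, USP9X, USP32, USP28 and USP33. At an unadjusted p below 0.05, 22 members were higher and 1 was lower, together 50% of members beside 26.6% of all genes. The change was positive in 40 of 46 members (87.0%, beside 61.1% of all genes), with a median of 0.14 beside 0.05 over all genes. All Dox libraries were above all Ctrl libraries in 20 members (43.5%, beside 19.1% of all genes) and below them in 1, beside 9.77%. The Dox group had the highest mean of the 4 groups in 22 members and the lowest in 0, which was not counted over all genes.

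The Dox count rested on scaling and on single libraries. It was 3 with the libraries rescaled by the trimmed mean of M-values (2.84% of all genes then rose), 4 with edgeR (2.89%) and 7 with DESeq2 (4.8%). Each of these 3 settings called 1 member lower, USP22, beside 3.97%, 4.19% and 6.25% of all genes. Leaving out 1 library gave 22 members without Ctrl replicate 1 (12.2% of all genes then rose), 14 without OHT_Dox replicate 3 (7.18%) and 12 without OHT replicate 1 (6.73%). It gave 1 without Ctrl replicate 2 (0.814% of all genes), 0 without Ctrl replicate 3 (0.584%) and 3 without Dox replicate 1 (3.2%). It gave 0 without Dox replicate 2 (0.455%) and 1 without Dox replicate 3 (2.1%). Ctrl replicate 1 was the library with the highest median deviation over the members (0.07), and Ctrl replicate 3 was at -0.05. USP transcripts are longer (median 5038 beside 2831 nucleotides) and lower in GC content (45.3% beside 48.2%) than those of all genes tested. The change with Dox went up with length (Spearman 0.448 across members, 0.261 across all genes) and down with GC content (-0.522 and -0.307). With that trend removed the median of the members was 0.02, 3 members rose and 1 fell, beside 2.01% and 3.98% of all genes.

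USP49 (ENSG00000164663), a deubiquitinase of histone H2B, had the largest rise with Dox. It was at 8.97, 8.81 and 8.09 CPM in Ctrl, 11.2, 9.58 and 8.24 in OHT, 11.6, 12.1 and 12.9 in Dox, and 12.6, 12.1 and 10.7 in OHT_Dox. Dox did not overlap Ctrl, and the rise was 0.47 ± 0.11 (adjusted p = 0.0155). The call was lost without Ctrl replicate 3, without Dox replicate 2 and without Dox replicate 3. In the presence of OHT the change was 0.28 ± 0.11 (adjusted p = 0.239). An opposite-strand gene that shares 246 exon bases with USP49 was counted at 148.5 CPM, far above USP49 itself.

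The other rises with Dox were smaller. USP54 rose by 0.33 ± 0.08 (adjusted p = 0.0226), USP30 by 0.33 ± 0.09 (adjusted p = 0.0304) and USP8 by 0.25 ± 0.06 (adjusted p = 0.0198, and a change of 0.02 with the length and GC trend removed). USP9X rose by 0.30 ± 0.08, USP32 by 0.29 ± 0.09 with overlapping libraries, USP28 by 0.27 ± 0.08 and USP33 by 0.22 ± 0.07. Of 21 alternatives, 16 lost the call of USP33, 13 that of USP32, 12 that of USP28, 9 those of USP9X and USP8, 6 that of USP30 and 5 that of USP54. USP8, USP9X, USP28, USP30, USP32, USP33 and USP54 were called as risen in Dox against Ctrl and as fallen in OHT_Dox against Dox. This pair of calls was not counted over all genes. Both comparisons use the same Dox libraries, so a high Dox group enters both. In the third comparison, OHT_Dox against OHT, none of these 7 was called.

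**Figure D4:**
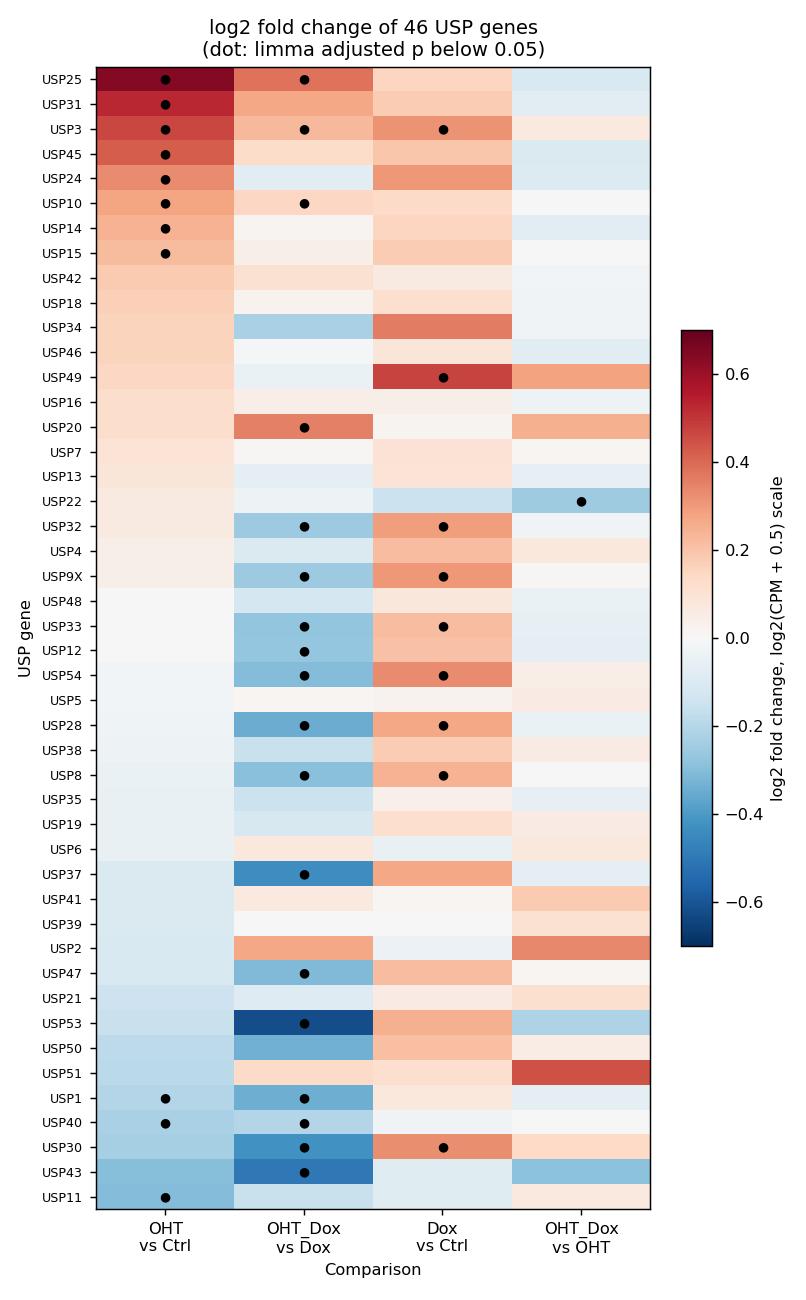
Heat map of the log2 change of each of the 46 USP genes for OHT without and with Dox (first 2 columns) and for Dox without and with OHT (last 2 columns); a dot marks an adjusted p below 0.05 (limma). Dox without OHT is positive for 40 of 46 genes, 14 dots for OHT with Dox mark falls, and Dox with OHT has 1 dot, at USP22.

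In the presence of OHT, USP22 alone among the members was called with Dox. In OHT_Dox against OHT, 0 members rose, beside 0.509% of all genes, and 1 fell, beside 1.59%. At an unadjusted p below 0.05, 5 were higher and 2 lower, together 15.2% of members beside 13.1% of all genes. The libraries did not overlap in 5 members with higher values (10.4% of all genes) and in 3 with lower ones (8.33%). USP22 (ENSG00000124422) was at 661, 576 and 643 CPM in Ctrl, 663, 633 and 668 in OHT, 554, 568 and 567 in Dox, and 533, 550.0 and 567 in OHT_Dox. Every library with Dox was below every library without it. The change was -0.25 ± 0.05 with OHT (95% interval -0.36 to -0.14, adjusted p = 0.0149) and -0.15 ± 0.05 without it (adjusted p = 0.0826, and called with TMM rescaling, edgeR and DESeq2). The call with OHT was lost without OHT replicate 1, OHT replicate 3, OHT_Dox replicate 1 or OHT_Dox replicate 2. The antisense gene CCDC144NL-AS1, which shares 394 exon bases with USP22, was counted at 0.634 to 0.735 of the CPM of USP22 and changed with Dox by -0.16 ± 0.05 with OHT and -0.21 ± 0.05 without it, so the reads of both may be mixed. Among the other 6 genes of the SAGA deubiquitinase module, 0 were called for Dox in either background, and with OHT 1 was called, ATXN7L2, which rose by 0.81 ± 0.10 without Dox and 0.93 ± 0.10 with it.

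The difference between the OHT changes in both backgrounds (the interaction) called 0 of 46 members and 0% of all genes in either direction with limma, and 0 members with edgeR and DESeq2. At an unadjusted p below 0.05, 0 members had a positive and 15 a negative interaction, which is 32.6% of members beside 15.4% of all genes. It was negative in 36 of 46 members (78.3%, beside 56.8% of all genes), with a median of -0.16 beside -0.04. Without Ctrl replicate 1, 8 members passed with a negative interaction, beside 4.12% of all genes. They were USP34, USP24, USP53, USP32, USP28, USP9X, USP33 and USP14, among which USP34, an enzyme of the Wnt pathway protein axin, had a value of -0.56. No member passed in any other alternative. The interaction of the members was related to transcript length and GC content (Spearman -0.537 and 0.594 across members), and with that trend removed the median was -0.05.

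The remaining 20 members were called in no comparison. Among the well expressed ones, USP5 stayed between 133 and 149.96 CPM, USP39 between 108 and 124, USP48 between 87.2 and 103, USP16 between 76.8 and 93.1 and USP19 between 78.0 and 94.7. USP34 varied more, from 79.7 to 121 CPM, and its lowest and highest Ctrl libraries already spanned 79.7 to 118 CPM. USP13, the paralogue of USP5, lay between 56.3 and 71.0 CPM. USP38 and USP46 stayed within 33.2 and 43.7 CPM, USP21 and USP42 within 19.2 and 29.8 CPM, and USP35 within 6.75 and 8.88 CPM. USP18, which removes the interferon-induced modifier ISG15, lay between 13.01 and 15.6 CPM. USP41, a near copy of USP18, was listed between 1.14 and 2.74 CPM, and reads of such copies can be assigned to either gene, as can those of USP6 and USP32. USP2, USP50, USP51 and USP6 did not exceed 2.70 CPM in any library. Fewer reads stand behind these low members (20 to 51 reads per library for USP51), so small changes in them were not detectable at this depth.

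USP36 (ENSG00000055483) showed the largest change with OHT of all USP genes listed here, and it does not count among the 46. It is a nucleolar deubiquitinase that stabilises MYC and nucleolar proteins. It was at 63.2, 63.1 and 55.9 CPM in Ctrl, 134, 111 and 125 in OHT, 54.6, 64.5 and 62.3 in Dox, and 119.9, 118 and 124 in OHT_Dox. The rise was 1.01 ± 0.07 without Dox (95% interval 0.85 to 1.17, adjusted p = 1.07e-08) and 0.99 ± 0.07 with Dox (interval 0.84 to 1.149, adjusted p = 1.34e-08), and it was called in all 21 alternatives for both. The difference between these changes was -0.02 ± 0.11 (adjusted p = 0.959), and Dox alone changed it by -0.01 (adjusted p = 0.969).

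Promoters were searched for CACGTG, the E-box that MYC and MYCN bind with MAX, because OHT activates MYCN-ER. The window runs from 250 bases before to 50 after the start of the RefSeq gene (GRCh38.p14), and the motif reads the same on both strands. RefSeq entries were found for 36 of the 46 members. The motif was in 2 of these 36 (5.56%), and in 7.26% of 35116 promoters of the same length. The 2 are USP28 and USP32. Both fell with OHT in the Dox background and had no call without Dox. None of the 7 members with a promoter entry that rose with OHT held the motif (0 of 7), nor did the 17 members without an OHT call. USP36, which rose, has it 27 bases before the start. These are matches of letters and do not show binding. The promoters of the gene with the largest rise, of both members with a motif, and of USP25 and USP11, the members with the largest rise and fall without Dox, are printed here 5′ to 3′ in the direction of transcription, with CACGTG in capitals. USP36 lies at chr17:78840765-78841064 on the minus strand, USP28 at chr11:113875523-113875822 on the minus strand, USP32 at chr17:60392084-60392383 on the minus strand, USP25 at chr21:15729732-15730031 on the plus strand, and USP11 at chrX:47232759-47233058 on the plus strand.
USP36: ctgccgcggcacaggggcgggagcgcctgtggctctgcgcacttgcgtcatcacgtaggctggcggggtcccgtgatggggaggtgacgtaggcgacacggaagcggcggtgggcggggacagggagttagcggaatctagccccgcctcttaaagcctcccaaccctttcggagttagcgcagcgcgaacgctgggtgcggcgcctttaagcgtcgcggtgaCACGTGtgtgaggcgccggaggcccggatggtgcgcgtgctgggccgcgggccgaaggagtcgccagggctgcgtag
USP28: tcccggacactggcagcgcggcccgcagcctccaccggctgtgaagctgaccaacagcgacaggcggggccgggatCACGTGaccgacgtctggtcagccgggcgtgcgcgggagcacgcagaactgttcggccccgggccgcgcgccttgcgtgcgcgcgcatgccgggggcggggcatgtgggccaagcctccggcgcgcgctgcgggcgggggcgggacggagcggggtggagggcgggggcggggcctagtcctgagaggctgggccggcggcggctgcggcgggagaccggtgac
USP32: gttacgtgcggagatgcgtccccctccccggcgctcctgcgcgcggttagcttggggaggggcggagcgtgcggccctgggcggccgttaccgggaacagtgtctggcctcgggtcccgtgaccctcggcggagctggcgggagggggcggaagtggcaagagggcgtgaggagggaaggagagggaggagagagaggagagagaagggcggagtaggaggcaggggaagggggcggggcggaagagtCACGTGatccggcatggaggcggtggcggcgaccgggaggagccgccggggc
USP25: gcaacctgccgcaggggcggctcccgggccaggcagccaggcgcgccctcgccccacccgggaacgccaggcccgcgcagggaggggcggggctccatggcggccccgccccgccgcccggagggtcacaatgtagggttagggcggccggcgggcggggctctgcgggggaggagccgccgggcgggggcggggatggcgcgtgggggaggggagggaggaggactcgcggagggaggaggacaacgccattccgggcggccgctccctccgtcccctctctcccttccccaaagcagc
USP11: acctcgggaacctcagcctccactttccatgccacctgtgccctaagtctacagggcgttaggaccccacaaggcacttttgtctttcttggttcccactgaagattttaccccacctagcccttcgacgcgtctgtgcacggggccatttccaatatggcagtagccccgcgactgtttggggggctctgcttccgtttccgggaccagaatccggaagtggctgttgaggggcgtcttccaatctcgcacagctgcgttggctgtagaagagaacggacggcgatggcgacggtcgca
In USP28 the motif begins 174 bases before the start and in USP32 it begins 2 bases before it. The windows of USP25 and USP11 do not contain these 6 letters.

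Lists of USP genes grouped by role are small, and their counts are read beside the shares of all genes: 12.6% rose and 8.79% fell with OHT in the absence of Dox, 11.5% and 14.5% in its presence, and 5.68% and 2.61% with Dox. Of 8 tested histone H2A and H2B deubiquitinases, 1 rose and 0 fell with OHT in each background (USP3), 2 rose with Dox (USP3 and USP49) and 1 fell with Dox in the presence of OHT (USP22). Of 8 tested enzymes reported to stabilise MYC proteins, USP36 rose and USP11 fell with OHT in the absence of Dox, while USP36 rose and USP28 and USP37 fell in its presence. Of the 3 WDR48-dependent enzymes (USP1, USP12 and USP46), 1 fell without Dox and 2 with it. Their median change with OHT was -0.00 and -0.27, beside -0.01 and -0.03 over all genes. The 3 proteasome and free-chain enzymes (USP5, USP13 and USP14) gave 1 rise, that of USP14, in all comparisons.

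Deubiquitinases of other families were counted in the same way. Of 36 tested genes of the UCH, OTU, Josephin, JAMM, MINDY and ZUFSP families, 5 rose and 2 fell with OHT in the absence of Dox (12.6% and 8.79% of all genes), 2 rose and 7 fell in its presence (11.5% and 14.5%), 3 rose and 0 fell with Dox (5.68% and 2.61%), and 0 were called for Dox with OHT. Whether these shares differ from those of the USPs was not tested. The largest changes were those of MINDY1 (-0.53 ± 0.12) and MINDY2 (-0.51 ± 0.12) with OHT in the Dox background, both trimming enzymes of long chains. CYLD has a USP-type catalytic domain but a symbol outside the naming rule. It fell with OHT by 0.40 ± 0.09 without Dox (adjusted p = 0.00216) and by 0.55 ± 0.09 with Dox (adjusted p = 1.12e-04), and it rose by 0.38 ± 0.09 with Dox (adjusted p = 0.0152). Its group means were 35.7 ± 2.66 CPM in Ctrl, 26.8 ± 1.30 in OHT, 46.8 ± 3.80 in Dox and 32.0 ± 3.84 in OHT_Dox.

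Although USP7 RNA itself did not pass any test, some genes for its partners and substrates were called. Of 17 tested, 6 rose and 1 fell with OHT in the absence of Dox (12.6% and 8.79% of all genes), and 6 rose and 2 fell in its presence (11.5% and 14.5%). Most were not called, 10 of 17 and 9 of 17, and the list as a whole was not tested. KDM2B, a subunit of a Polycomb complex that holds USP7, rose by 0.82 ± 0.06 and 0.76 ± 0.06, and TRIM27 by 0.38 ± 0.07 and 0.44 ± 0.07. CCDC6 rose by 0.54 ± 0.06 and 0.23 ± 0.06, and RNF168, a ligase of the DNA damage response, by 0.48 ± 0.07 and 0.26 ± 0.07. RNF2, another Polycomb ligase, rose by 0.43 ± 0.08 and 0.24 ± 0.08. MDM2 fell by 0.26 ± 0.06 with OHT in the Dox background, and its interaction was not called (adjusted p = 0.569). DAXX, a chaperone of histone H3.3, fell by 0.37 ± 0.09 with OHT in the absence of Dox, rose by 0.35 ± 0.09 in its presence and fell by 0.47 ± 0.09 with Dox. Its interaction was 0.71 ± 0.13 with adjusted p = 0.221. The ubiquitin genes UBB (-0.31 ± 0.06) and RPS27A (-0.27 ± 0.08) fell with OHT in the absence of Dox, whereas UBA6, which encodes a ubiquitin-activating enzyme, rose by 0.22 ± 0.07. Of 8 E3 ligases of MYC proteins, 0 were called with OHT in the absence of Dox. In its presence 1 rose and 1 fell, beside 11.5% and 14.5% of all genes: STUB1 rose by 0.40 ± 0.07 and TRIP12 fell by 0.26 ± 0.07. With Dox 2 rose and 1 fell, beside 5.68% and 2.61% of all genes: SKP2 (0.23 ± 0.05) and TRIP12 (0.27 ± 0.07) rose, and STUB1 fell by 0.23 ± 0.07. Of 21 alternatives, 10 lost the Dox call of TRIP12, 10 that of STUB1 and 7 that of SKP2. TRIP12, STUB1 and DAXX, like CYLD above, had opposite calls in Dox against Ctrl and OHT_Dox against Dox. Both comparisons use the same Dox libraries.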

How the data were processed

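Poly(A) RNA of 12 libraries in 4 groups of 3 was measured. The deposited values are CPM, scaled by the authors to 1000000 per library; each library sums to that over its genes. Per the submitters' processing notes, the tools include STAR and featureCounts and the builds are hg19 and mm10, with no role or strand setting given, so no coordinates from the files are printed. Every CPM was a whole multiple of 1 step (tolerance 0.01 reads), which gave whole read counts of the deposited libraries. Genes at 0.5 CPM or more in 3 libraries (18674) were fitted as log2(CPM + 0.5) with limma 3.58.1 in R 4.3.3: 1 mean per group, moderation with a mean trend, Benjamini-Hochberg adjustment over all genes, two-sided. The pseudocount draws changes of low genes towards 0. Lengths, GC content and overlaps came from GENCODE 29 (28572 genes matched), promoters from RefSeq. Library values are given for USP7, USP11, USP4, USP15 and the 5 members with the smallest p per comparison; other called members are named with their change, and for other lists up to 4. Library values of USP14, USP20 and USP36 were added after their values were seen. The genes and lists were chosen with earlier results of these data known. Alternatives were other pseudocounts, no filter, TMM scaling, edgeR 4.0.16, DESeq2 1.42.0, a replicate block, a length and GC trend removed, and libraries left out.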

Additional observations from a re-analysis of the deposited data

Results flagged for a closer look

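In 2 members the libraries with and without Dox did not overlap, in opposite directions in the absence and presence of OHT. How many of all genes show both was not counted. Taken singly, 19.1% of all genes were higher in all Dox than in all Ctrl libraries. In all OHT_Dox libraries 8.33% were lower than in all OHT libraries. USP14 changed by 0.15 ± 0.05 with all Dox libraries above all Ctrl libraries, and by -0.07 ± 0.05 with all OHT_Dox libraries below all OHT libraries. USP53 changed by 0.25 ± 0.08 and by -0.21 ± 0.08 in the same way. None of these 4 changes passed the test of its own comparison, and the opposite directions were picked out without a test. The interaction fitted with limma gave -0.22 ± 0.07 for USP14 and -0.47 ± 0.12 for USP53, each with adjusted p = 0.221. With Ctrl replicate 1 left out, both passed (-0.25, adjusted p = 0.0467, and -0.50, adjusted p = 0.0281), and 4.12% of all genes had a negative call. No other alternative called the interaction of any member.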

How the results depend on the processing

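Under 21 alternatives, no named gene changed the direction of a called change. With the length and GC trend removed, 7 members fell with OHT without Dox (3 as reported), beside 13.5% of all genes. In that setting 9 rose with OHT in the Dox background (4 as reported), beside 13.3%. With Dox 3 rose and 1 fell (9 and 0 as reported), beside 2.01% and 3.98%. With Dox, 5 rose without a filter on low values (2.36% of all genes), 3 with TMM rescaling (2.84%) and 4 with edgeR (2.89%). In addition, 1 fell with TMM rescaling (3.97%), edgeR (4.19%) and DESeq2 (6.25%). Without Dox replicate 1 and OHT_Dox replicate 3 together, 7 fell with OHT in the Dox background (14 as reported) and 5 rose with Dox. The shares of all genes were then 8.44% and 4.57%. Leaving out 1 library gave 6 to 10 members that rose and 1 to 4 that fell with OHT without Dox. The shares of all genes were 9.19% to 13.9% and 5.87% to 9.45%. In the Dox background 2 to 5 rose with OHT (9.19% to 12%) and 9 to 14 fell (9.82% to 15.5%). With Dox 0 to 22 rose (0.455% to 12.2%) and 0 to 1 fell (0.6% to 4.85%). In the presence of OHT 0 to 1 fell with Dox (0.83% to 2.06%). A negative interaction was called in 0 to 8 members (0% to 4.12%). For OHT without Dox the lowest count was 1 fall, without Ctrl replicate 1 (9.09% of all genes), Ctrl replicate 2 (6.09%) or OHT replicate 3 (6.05%). For OHT in the Dox background it was 2 rises, without Dox replicate 2 (9.22%), Dox replicate 3 (10.6%) or OHT_Dox replicate 2 (11%). The cause was not tested.

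With the replicate number as a block, 16 members rose with Dox, beside 9.46% of all genes. USP11 and USP31 were then called with OHT in the Dox background (-0.16, adjusted p = 0.0218, and 0.27, adjusted p = 0.0125). Same-numbered libraries deviated together in part: 15 of 18 pairs correlated positively, 7 of 18 above 0.1 (range -0.17 to 0.33), and 4 of 12 libraries correlated best with their own number. The deviations rose with GC content in 4 of 4 libraries numbered 3 and in 0 of the other 8, and the median deviation of the members was positive in 4 of 4 numbered 1 and in 0 of 4 numbered 3. The labels do not say what the number marks. Depth limits the 6 members below 3 CPM.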
